A study of Homo sapiens with 6 samples.

Results

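CDA encodes cytidine deaminase, which converts cytidine and deoxycytidine to uridine and deoxyuridine and inactivates cytidine drugs such as gemcitabine. It was examined with 9 other enzymes of pyrimidine salvage and deoxynucleotide supply in MDA-MB-231 cells, a widely used line from a triple-negative human breast cancer. The 10 genes were taken by symbol from 18417 genes that had a row of their own in the array table, and each was read by a single probe set of the 33297 on the array. CDA was included because its signal was lower in the TIP-1 shRNA clones of these same arrays. Its values are therefore given as a description without a test. The other 9 genes are its neighbours in the pathway, chosen with results of these arrays known, and were tested over the whole table.

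The arrays came from clones with short hairpin RNA (shRNA) 159 against TIP-1, clones with shRNA 162 against TIP-1, and clones with a control shRNA, with 2 independent clones and 1 array per clone in each group. TIP-1 is the PDZ-domain protein encoded by TAX1BP3. All clones were grown in RPMI 1640 with fetal bovine serum, reseeded after trypsin and cultured overnight before total RNA was taken. The labels do not say how the clones were derived or what the control hairpin targets, and with 2 clones per hairpin the effect of a hairpin and that of its clones cannot be told apart.

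Cells obtain pyrimidine nucleotides by building UMP from small precursors or by salvaging nucleosides. In salvage, kinases such as DCK, UCK1 and UCK2 trap nucleosides as monophosphates, CMPK1 raises UMP, CMP and dCMP to diphosphates, and ribonucleotide reductase (RRM1 with RRM2) turns ribonucleotides into deoxyribonucleotides. CDA and DCTD move cytosine compounds to the uracil side, from which TYMS makes the thymidylate needed for DNA, while UPP1 and TYMP cleave uridine and thymidine. Several of these enzymes activate or inactivate drugs such as gemcitabine, cytarabine and fluorouracil, and TYMS is the target of fluorouracil.

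The sequence at the start of CDA held fewer CpG dinucleotides than that of any other gene of the group, a feature that had no part in their choice. The promoter windows, from 250 bases before to 50 bases after the RefSeq start (GRCh38.p14), are shown for CDA (chr1:20588847-20589146, plus strand), for TYMS (chr18:657403-657702, plus strand) as a window rich in CpG, and for CMPK1 (chr1:47333540-47333839, plus strand), the tested gene that passed between hairpins. Capitals mark CpG dinucleotides.
CDA: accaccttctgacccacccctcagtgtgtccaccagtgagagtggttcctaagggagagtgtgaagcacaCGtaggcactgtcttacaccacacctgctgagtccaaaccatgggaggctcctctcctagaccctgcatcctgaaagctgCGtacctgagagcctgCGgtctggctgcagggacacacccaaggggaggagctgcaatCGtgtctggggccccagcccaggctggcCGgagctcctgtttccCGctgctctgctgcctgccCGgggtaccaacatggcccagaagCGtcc
TYMS: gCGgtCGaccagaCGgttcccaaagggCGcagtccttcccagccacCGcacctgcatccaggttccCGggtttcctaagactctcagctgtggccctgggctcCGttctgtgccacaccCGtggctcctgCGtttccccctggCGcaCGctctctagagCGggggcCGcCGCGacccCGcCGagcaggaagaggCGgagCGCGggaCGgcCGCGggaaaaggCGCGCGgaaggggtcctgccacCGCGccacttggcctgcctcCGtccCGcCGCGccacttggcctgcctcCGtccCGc
CMPK1: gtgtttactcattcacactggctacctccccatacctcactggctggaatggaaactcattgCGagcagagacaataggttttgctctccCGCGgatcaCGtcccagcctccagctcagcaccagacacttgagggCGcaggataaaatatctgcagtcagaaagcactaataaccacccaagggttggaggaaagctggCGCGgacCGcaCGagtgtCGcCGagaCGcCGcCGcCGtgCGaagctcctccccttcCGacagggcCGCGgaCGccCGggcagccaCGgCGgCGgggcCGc

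The CDA window held 8 CpG dinucleotides, against 34 in TYMS, 25 in CMPK1 and 21 to 46 over all 9 other members (median 30.0). All 35116 RefSeq windows of this length had a median of 14.0, and 41.6% of them had as few as CDA or fewer. GC content was 62.0% in CDA and 61.7% in CMPK1, and ran from 57.0% (RRM1) to 80.7% (TYMP) over the 9 other members. The ratio of observed to expected CpG was 0.28 in CDA and 0.88 in CMPK1. Over the 9 it ran from 0.75 (UPP1) to 0.94 (TYMP). The GC box GGGCGG, searched on both strands, was found in the windows of 7 of the 10 genes (DCK, UCK1, UCK2, TYMP, UPP1, DCTD and RRM1) and in 45.0% of all windows. The letters CCAAT occurred in 3 of 10 (UCK2, TYMP and RRM1) and in 34.6% of all windows, and CACGTG in DCK alone and in 7.26% of all windows. None of the 10 windows held TATAAA (11.5% of all windows), TGANTCA (7.71%) or CTTTGNT (15.4%). These are matches of letters and not binding sites, and no methylation or binding was measured here.

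**Figure D1:**
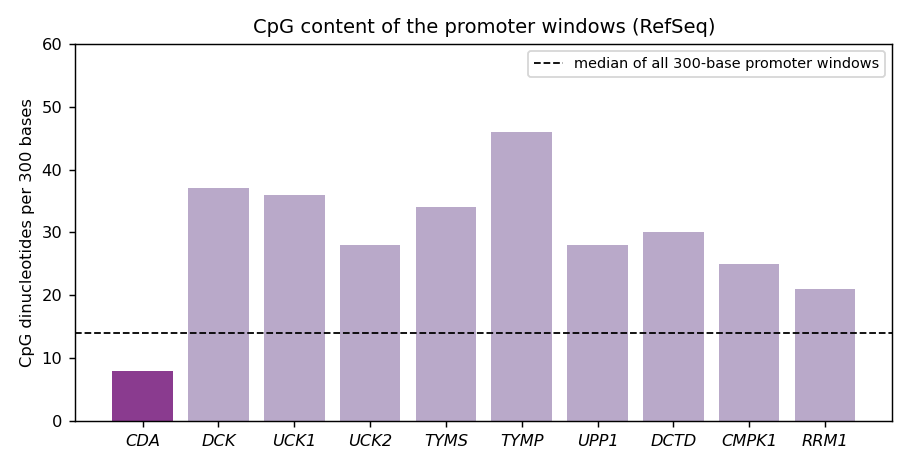
Number of CpG dinucleotides in the 300-base promoter window of each gene (bars), with the median of all RefSeq windows of that length as a dashed line. CDA, with 8, is the only bar below the median of 14.0, and the other 9 lie between 21 and 46.

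Values are log2 array signals, so a difference of 1 is a doubling of signal, and array medians lay between 7.37 and 7.44. The targeted gene TAX1BP3 stood at 10.40 and 10.40 in the shRNA 159 clones, 9.85 and 10.01 in the shRNA 162 clones and 11.65 and 11.56 in the control clones. This left 43.4% of the control level with shRNA 159 and 31.3% with shRNA 162, and TAX1BP3 fell in both comparisons (limma adjusted p = 0.00034 and 4.4e-05). TAX1BP3 was higher with shRNA 159 than with shRNA 162 by 0.47 (SE 0.08, limma adjusted p = 0.013), a call lost without shRNA 162 clone 1 (0.39, limma adjusted p = 0.101). Its row is shared with the readthrough transcript P2RX5-TAX1BP3. Of the markers of this line, VIM, CD44, CAV1, AXL, MSN and ANXA1 were bright on every array (AXL 12.53 to 12.63, CD44 13.24 to 13.41), above every array's upper quartile (at most 9.08). PLAU, the remaining marker of 7, rose by 0.47 with shRNA 159 (limma adjusted p = 0.029, lost without any 1 control or shRNA 159 clone, up to 0.175, and under quantile normalization). The luminal gene CDH1 lay at 6.22 to 6.42, PGR at 5.83 to 6.10, the pan-leukocyte gene PTPRC at 4.84 to 5.19 and the fibroblast gene LUM at 3.58 to 3.88. They come from lists of 11 luminal, 7 leukocyte and 8 fibroblast and endothelial markers. Apart from AGR2 below, the levels of the other markers are not given, so these levels do not describe the lists as a whole. Of 7 leukocyte markers 0 passed against control with either hairpin in limma (0 at an unadjusted p under 0.05). Of 8 fibroblast and endothelial markers 0 passed (1 unadjusted with each hairpin). Among all rows 2.53% passed with shRNA 159 and 9.52% with shRNA 162. Of 11 luminal markers AGR2 rose with shRNA 162, by 0.46 (limma adjusted p = 0.029), on a dim row at 5.01 to 5.66, a call lost without either control clone or shRNA 162 clone 2 (up to 0.172) and under quantile normalization.

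CDA (probe set 7898655) was lower with both hairpins, and more so with shRNA 162. Its log2 signal was 9.16 and 9.20 in the shRNA 159 clones, 8.36 and 8.47 in the shRNA 162 clones, and 10.32 and 10.27 in the control clones. The 3 groups did not overlap, and clones of the same group lay close together. The mean was 9.18 ± 0.03 with shRNA 159, 8.41 ± 0.08 with shRNA 162 and 10.29 ± 0.04 in control clones (SD, n = 2 each). On the linear scale this left 46.3% of the control signal with shRNA 159 and 27.2% with shRNA 162. The log2 difference from control was -1.11 with shRNA 159 and -1.88 with shRNA 162 (SE 0.08 each), and the shRNA 159 clones exceeded the shRNA 162 clones by 0.77, or 1.70-fold. Less CDA transcript per cell and fewer cells that express it cannot be told apart in RNA of a whole culture.

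The order of the groups was the same for CDA and for TAX1BP3, with shRNA 162 lowest, shRNA 159 between and control highest. Of the 21214 tested rows, 10 had a lower difference than CDA for shRNA 159 minus control and 6 for shRNA 162 minus control. These ranks describe how CDA came to be chosen and support nothing further.

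None of the other 9 genes passed the test against control with either hairpin or for the mean of both. To pass, a gene needed a limma p under 0.05 after Benjamini-Hochberg adjustment over all 21214 tested rows. The count was 0 of 9 with shRNA 159, where 2.53% of all rows passed (1.69% higher, 0.839% lower), 0 of 9 with shRNA 162, where 9.52% passed (5.88% higher, 3.64% lower), and 0 of 9 for the mean of both hairpins minus control, where 4.62% passed (3.01% higher, 1.61% lower). At an unadjusted p under 0.05 the counts were 1 (CMPK1), 1 (UCK2) and 0. After quantile normalization, which brought the all-row calls for shRNA 162 minus control to 1078 higher and 1074 lower (1247 and 772 as deposited) and those for the mean to 565 and 459 (639 and 341 as deposited), the counts were 1 (CMPK1), 0 and 0. At a share of 2.53% to 9.52%, 0 of 9 is near the background. The median log2 difference of the 9 genes was -0.003 with shRNA 159 and -0.03 with shRNA 162, beside -0.01 and 0.02 over all rows. Over the 9 genes the differences from control ran from -0.34 to 0.16 with shRNA 159 and from -0.22 to 0.20 with shRNA 162, and no bound of their 95% intervals lay farther from 0 than 0.52 and 0.45. 

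**Figure D2:**
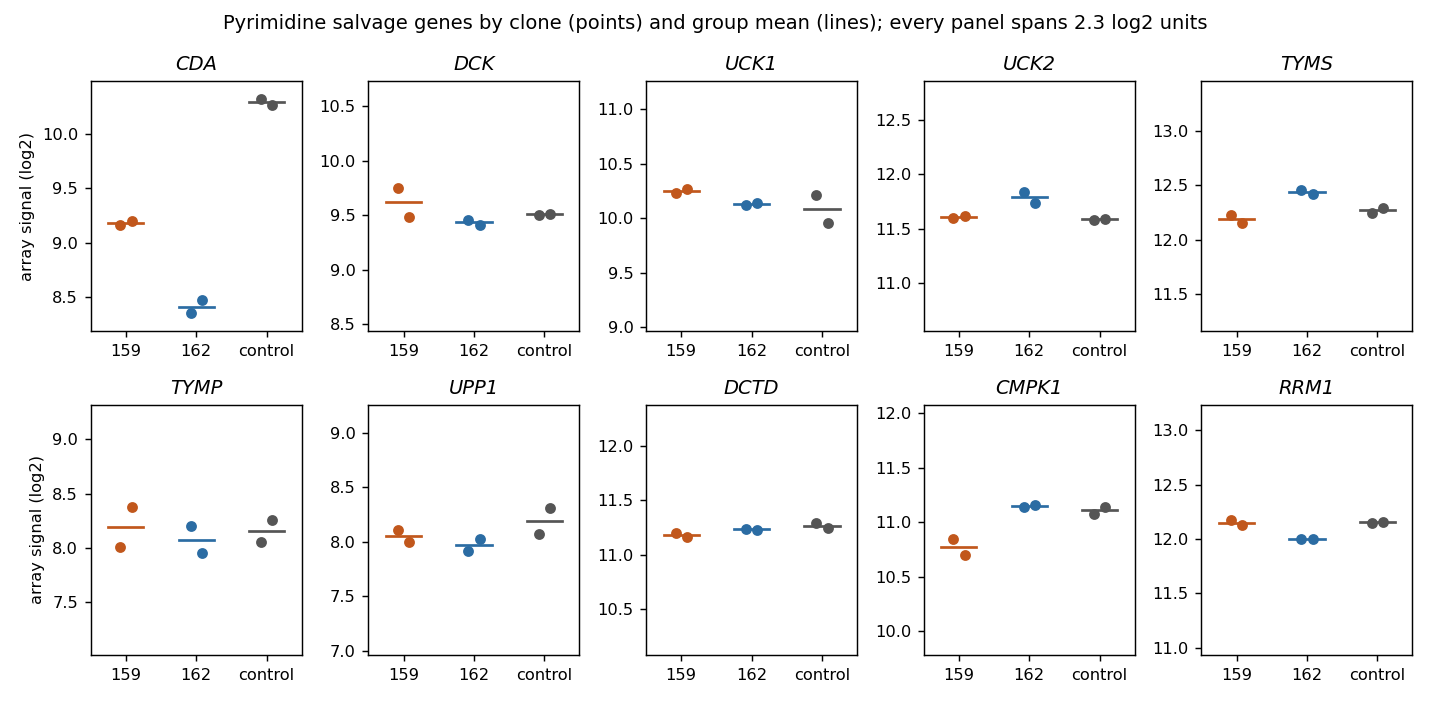
Array signal (log2) of the 10 genes in each clone (points) with group means (lines), for shRNA 159, shRNA 162 and control, on axes that all span the same number of log2 units. CDA shows 3 separate levels, at 9.16 and 9.20 with shRNA 159, 8.36 and 8.47 with shRNA 162 and 10.32 and 10.27 in control clones, while CMPK1 is lower in the shRNA 159 clones (10.85 and 10.70) and the other 8 genes vary by at most 0.43 over the 6 arrays.

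Among the kinases that start salvage, DCK, which phosphorylates deoxycytidine and activates gemcitabine, had 9.75 and 9.48 in the shRNA 159 clones, 9.45 and 9.41 in the shRNA 162 clones, and 9.51 and 9.51 in control clones. The shRNA 159 clones lay on either side of the control clones, and the shRNA 162 clones just below them. The difference from control was 0.11 with shRNA 159 (95% interval -0.11 to 0.34) and -0.07 with shRNA 162 (-0.30 to 0.15). The uridine-cytidine kinase UCK1 stood at 10.23 and 10.27 with shRNA 159, 10.12 and 10.14 with shRNA 162, and 10.22 and 9.95 in control clones, so that the 2 control clones differed more than any groups did. Its paralogue UCK2 had 11.60 and 11.62 with shRNA 159, 11.84 and 11.74 with shRNA 162, and 11.58 and 11.59 in control clones. UCK2 was thus highest in the shRNA 162 clones, by 0.20 over control (SE 0.08, limma adjusted p = 0.136), which did not pass.

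CMPK1, which makes UDP, CDP and dCDP, differed between the hairpins. Its signal was 10.85 and 10.70 in the shRNA 159 clones, 11.14 and 11.16 in the shRNA 162 clones, and 11.08 and 11.14 in control clones. Both shRNA 159 clones lay below the other 4 arrays, among which the shRNA 162 and control clones overlapped. For shRNA 159 minus shRNA 162 CMPK1 fell by 0.38 (SE 0.08, limma adjusted p = 0.027), which is 0.770 times the shRNA 162 level on the linear scale. It was the 1 of the 9 genes that passed in this comparison, where 8.65% of all rows did (4.02% higher, 4.64% lower, and 3 of 9 at an unadjusted p under 0.05, with UCK2 and TYMS). Against control the difference was -0.34 with shRNA 159 (95% interval -0.52 to -0.15, limma adjusted p = 0.083) and 0.04 with shRNA 162 (-0.15 to 0.23), and neither passed. The call rests on few arrays: without shRNA 159 clone 2 the difference between hairpins was -0.30 (limma adjusted p = 0.092), and without either control clone, which leaves the value at -0.38 and alters only the error, the adjusted p was 0.0503 and did not pass. Without shRNA 162 clone 1 or 2 it was 0.126 or 0.143.

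**Figure D3:**
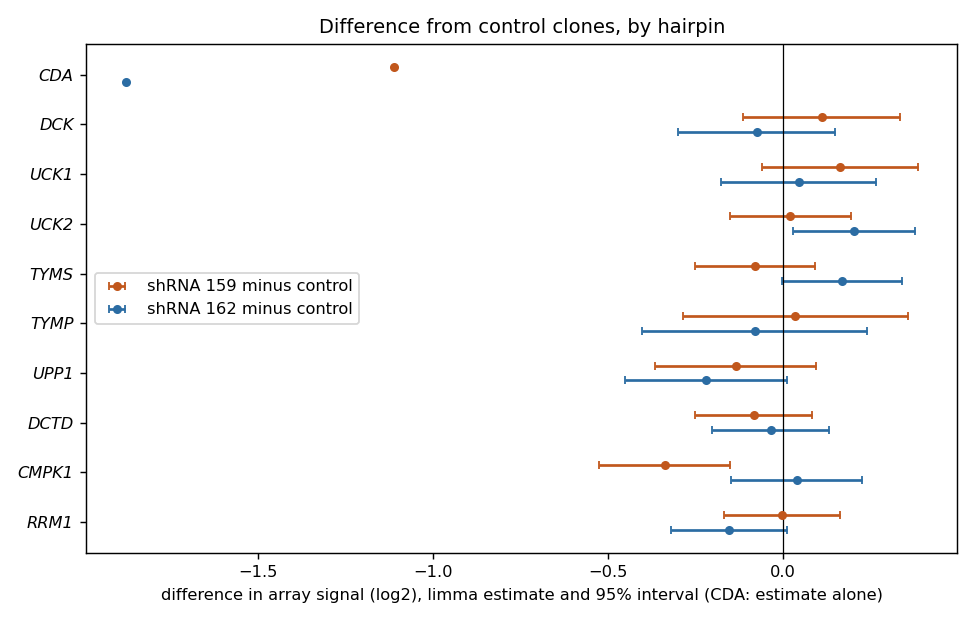
Difference in log2 array signal from the control clones for shRNA 159 and shRNA 162, with limma's 95% intervals for the 9 tested genes and the estimate alone for CDA. CDA lies at -1.11 and -1.88, and the other 18 estimates lie between -0.34 and 0.20.

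DCTD, TYMS and RRM1 act in the supply of DNA precursors. DCTD, which deaminates dCMP and so reaches the same uracil branch as CDA at the nucleotide level, had 11.20 and 11.17 with shRNA 159, 11.24 and 11.23 with shRNA 162, and 11.29 and 11.24 in control clones. Its 6 values spanned 0.13, the narrowest range of the 10 genes, and its difference from control was -0.08 with shRNA 159 (95% interval -0.25 to 0.08) and -0.03 with shRNA 162 (-0.20 to 0.13). TYMS, thymidylate synthase and the target of fluorouracil, had 12.23 and 12.16 with shRNA 159, 12.46 and 12.42 with shRNA 162, and 12.25 and 12.30 in control clones. The shRNA 162 clones were the highest and the shRNA 159 clones the lowest, a difference between hairpins of -0.25 (SE 0.07, limma adjusted p = 0.080) that did not pass, but did among brighter rows and with a variance trend (limma adjusted p = 0.020 and 0.003). RRM1, the large subunit of ribonucleotide reductase, had 12.17 and 12.13 with shRNA 159, 12.002 and 11.997 with shRNA 162, and 12.15 and 12.16 in control clones. RRM1 was lowest in the shRNA 162 clones, at -0.15 from control (SE 0.07, limma adjusted p = 0.232), which did not pass.

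The phosphorylases had dimmer rows and wider spreads. TYMP, thymidine phosphorylase, had 8.01 and 8.38 with shRNA 159, 8.20 and 7.95 with shRNA 162, and 8.06 and 8.26 in control clones, so that all 3 groups overlapped. Its intervals are the widest of the 9 genes, from -0.29 to 0.36 with shRNA 159 and from -0.40 to 0.24 with shRNA 162. UPP1, uridine phosphorylase, had 8.11 and 7.997 with shRNA 159, 7.91 and 8.03 with shRNA 162, and 8.07 and 8.31 in control clones. Its mean was below control with both hairpins, by -0.13 and -0.22, and neither difference passed (limma adjusted p = 0.604 and 0.220).

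The wider pyrimidine pathway was described from 7 lists with 54 measured genes besides these. Of the 54, 0 passed with shRNA 159 (8 at an unadjusted p under 0.05; 2.53% of all rows passed). With shRNA 162, 5 rose and 2 fell, which is 13.0% of the list beside 9.52% of all rows. After quantile normalization 2 rose (DUT and UPB1) and 3 fell (NME4, GLRX and TK2), so the balance of directions turned with the scaling. For the mean of both hairpins minus control 1 rose and 1 fell (3.7%, beside 4.62%), and between hairpins 4 were higher and 2 lower with shRNA 159 (11.1%, beside 8.65%). The median difference from control over the 54 genes was 0.02 with shRNA 159 and 0.03 with shRNA 162. With all arrays 7 genes passed with shRNA 162, and most of these calls were lost without any 1 control or shRNA 162 clone. Each such fit has a single clone left in a group, which lowers its precision, so the losses do not single out an array.

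In de novo synthesis, 2 of 5 genes rose with shRNA 162 as deposited, where 9.52% of all rows passed (5.88% higher), but 0 after quantile normalization. With shRNA 159, 0 of 5 passed (1 at an unadjusted p under 0.05 in limma), where 2.53% of all rows did. CAD, the enzyme of the first 3 steps, had 9.72 and 9.64 with shRNA 159, 9.78 and 9.81 with shRNA 162, and 9.39 and 9.55 in control clones. All 4 TIP-1 shRNA clones lay above both control clones, by 0.21 with shRNA 159 (limma adjusted p = 0.297, not passed) and 0.33 with shRNA 162 (SE 0.08, limma adjusted p = 0.048, and 0.061 after quantile normalization). UMPS, which completes UMP, had 9.78 and 9.83 with shRNA 159, 9.98 and 10.04 with shRNA 162, and 9.67 and 9.75 in control clones, and rose by 0.30 with shRNA 162 (SE 0.08, limma adjusted p = 0.045, and 0.074 after quantile normalization). DHODH, CTPS1 and CTPS2 did not pass.

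In deoxynucleotide supply, 1 of 10 genes rose and 1 fell with shRNA 162, which is 20.0% beside 9.52% of all rows. Between hairpins 3 were higher (RRM2, TXNRD1 and GLRX) and 1 lower (DUT) with shRNA 159, which is 40.0% beside 8.65% of all rows. After quantile normalization 3 were higher and 2 lower between hairpins. DUT, which removes dUTP and provides dUMP for TYMS, had 9.05 and 9.04 with shRNA 159, 9.34 and 9.33 with shRNA 162, and 8.98 and 8.96 in control clones. DUT rose by 0.37 with shRNA 162 (SE 0.07, limma adjusted p = 0.017), a call lost when rows without a gene symbol were added to the fit. The glutaredoxin GLRX, a reductant of ribonucleotide reductase, had 9.02 and 9.03 with shRNA 159, 8.70 and 8.48 with shRNA 162, and 9.24 and 9.29 in control clones. With shRNA 162, GLRX fell by 0.67, to 62.8% of control (SE 0.09, limma adjusted p = 0.0041), and its difference of -0.24 with shRNA 159 did not pass (limma adjusted p = 0.277). RRM2, the small subunit that pairs with RRM1, had 10.99 and 10.80 with shRNA 159, 10.60 and 10.45 with shRNA 162, and 10.63 and 10.58 in control clones. RRM2 was higher with shRNA 159 than with shRNA 162 by 0.37 (SE 0.09, limma adjusted p = 0.049). Its difference of 0.29 from control did not pass (limma adjusted p = 0.204), but did with a variance trend. The call of RRM2 between hairpins was lost without any 1 array other than shRNA 159 clone 2, with a limma adjusted p of up to 0.257. TXNRD1, a thioredoxin reductase named here after its values were seen, had 11.04 and 11.03 with shRNA 159, 10.60 and 10.67 with shRNA 162, and 10.77 and 10.77 in control clones. It was higher with shRNA 159 than with shRNA 162 by 0.40 (SE 0.07, limma adjusted p = 0.014), a call lost without either shRNA 162 clone. Against control TXNRD1 did not pass in the main fit. With shRNA 159 it did pass against control among brighter rows and with a variance trend.

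Among the other salvage and nucleotide kinases, 0 of 13 passed with shRNA 159 (beside 2.53% of all rows) and 1 with shRNA 162 (7.69%, beside 9.52%). NME4, the nucleoside diphosphate kinase of mitochondria, had 10.13 and 10.23 with shRNA 159, 9.73 and 9.78 with shRNA 162, and 10.15 and 10.11 in control clones, and fell by 0.37 with shRNA 162 (SE 0.08, limma adjusted p = 0.021). TK1, the thymidine kinase of the cytosol, had 11.39 and 11.39 with shRNA 159, 11.44 and 11.34 with shRNA 162, and 11.35 and 11.42 in control clones. Its difference from control was 0.003 with shRNA 159 (95% interval -0.17 to 0.18) and 0.01 with shRNA 162 (-0.17 to 0.18).

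Of 7 nucleoside transporters and 7 nucleotidases 0 passed against control with either hairpin. At an unadjusted p under 0.05 the counts were 0 and 0 with shRNA 159 and 2 and 1 with shRNA 162. Of all rows 2.53% passed with shRNA 159 and 9.52% with shRNA 162. SLC29A1, the main carrier by which gemcitabine enters cells, had 11.06 and 11.06 with shRNA 159, 11.27 and 11.21 with shRNA 162, and 11.13 and 11.25 in control clones. Of 4 breakdown genes UPB1 rose by 0.42 with shRNA 162 (limma adjusted p = 0.012), and of 8 deaminases that act on RNA or DNA APOBEC1 rose by 0.36 (limma adjusted p = 0.045, and 0.062 after quantile normalization). Both rows were below the array medians on every array, UPB1 at 6.47 to 6.93 and APOBEC1 at 6.21 to 6.75, and were not shown to be above background, so these are differences in array signal alone. DPYD, which breaks down uracil and fluorouracil, lay between 9.80 and 9.99 on the 6 arrays.

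**Figure D4:**
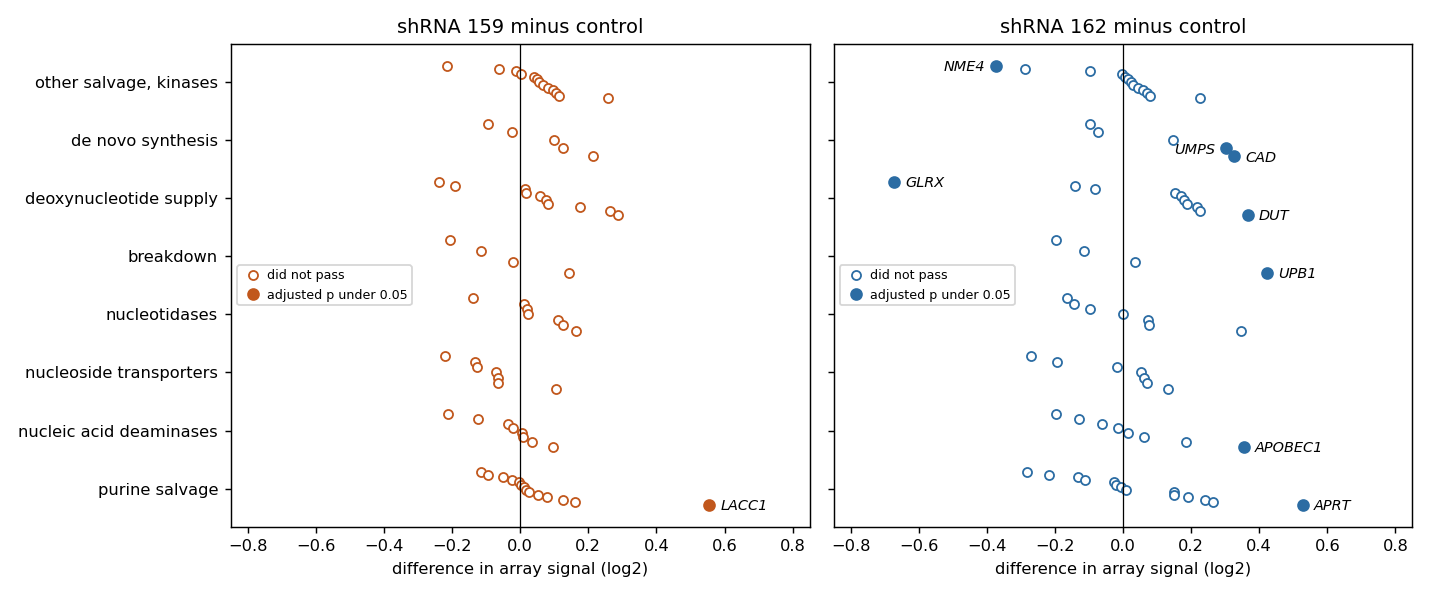
Difference in log2 array signal from control for each gene of 7 pyrimidine lists and of the purine salvage list, with shRNA 159 on the left and shRNA 162 on the right. Filled points passed (limma adjusted p under 0.05), which was 0 of the 54 pyrimidine genes on the left and 7 of 54 on the right, and every point lies between -0.67 and 0.56.

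In purine salvage and breakdown 1 of 14 genes passed with each hairpin, which is 7.14%, beside 2.53% of all rows with shRNA 159 and 9.52% with shRNA 162. APRT, which salvages adenine, had 9.44 and 9.68 with shRNA 159, 10.01 and 9.84 with shRNA 162, and 9.37 and 9.42 in control clones, and rose by 0.53 with shRNA 162 (SE 0.10, limma adjusted p = 0.017). LACC1, a purine nucleoside enzyme, rose by 0.56 with shRNA 159 (SE 0.11, limma adjusted p = 0.034). The call of APRT was lost without either control clone or shRNA 162 clone 1 (limma adjusted p up to 0.106), and that of LACC1 without either control clone or shRNA 159 clone 1 (up to 0.176). Because TYMS, RRM1 and DUT are expressed with DNA replication, 40 genes of S phase and division were read beside them. Of these, 1 rose with shRNA 159 (RFC2, a clamp loader subunit, by 0.61), and 5 rose and 2 fell with shRNA 162, which is 17.5% beside 9.52% of all rows (4 rose and 3 fell after quantile normalization). MCM2, a helicase subunit, rose by 0.51 and the primase PRIM1 by 0.53 with shRNA 162, while RFC4 fell by 0.62 (limma adjusted p = 0.006, 0.0074 and 0.0046). RFC4 passed whichever array was left out. RFC2 with shRNA 159 was lost without control clone 1 (limma adjusted p = 0.065), MCM2 without control clone 1 or shRNA 162 clone 2 (up to 0.056), and PRIM1 without control clone 2 or shRNA 162 clone 2 (up to 0.063). The part of replication in the values of DUT and UMPS was not tested.

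Of the 6 measured neighbours of CDA on chromosome 1, 0 passed with shRNA 159 and 1 with shRNA 162 in limma, and none was lower by more than 0.32. In the RefSeq order of protein-coding genes, CAMK2N1, MUL1 and FAM43B precede CDA and PINK1, DDOST and KIF17 follow it. Their differences from control lay between -0.21 and 0.09 with shRNA 159 and between -0.32 and 0.10 with shRNA 162. The gene that passed was PINK1, the gene next to CDA, which fell by 0.32 with shRNA 162 (limma adjusted p = 0.031). Of 54 measured neighbours of the other 9 members, 0 passed with shRNA 159, where 2.53% of all rows did. With shRNA 162, 6 passed (11.11%, beside 9.52% of all rows), and 4 did between hairpins (7.41%, beside 8.65%). These neighbours were read after values were seen. With shRNA 162, SLC4A4 (-0.36) beside DCK and TENM3 (-1.10) beside DCTD were lower, as were RHOG (-0.29) and STIM1 (-0.38) beside RRM1. VEGFC (0.31) beside DCTD and TRIM21 (0.45) beside RRM1 were higher. None of the 6 neighbours of CMPK1 passed in any of the 4 comparisons (limma).

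Outside the pathway, the rows whose 6 values lay nearest to those of CDA were picked by the root mean square distance after subtracting each row's control mean, over 6 arrays. They were SPANXB1 (0.15 log2 units from CDA), the chromatin remodeller SMARCA1 (0.15), the G protein regulator RGS4 (0.20), the actin bundler LCP1 (0.29), CPED1 (0.31), the receptor F2RL2 (0.31), the hyaluronan synthase HAS2 (0.32) and the receptor CD96 (0.37). Since SPANXB1 has close paralogues of almost the same sequence, which of them its row reads is uncertain. SMARCA1 had 7.48 and 7.49 with shRNA 159, 6.41 and 6.35 with shRNA 162, and 8.52 and 8.35 in control clones. RGS4 had 7.13 and 7.10 with shRNA 159, 6.84 and 6.63 with shRNA 162, and 8.30 and 8.39 in control clones. In SPANXB1, SMARCA1, RGS4, LCP1, CPED1 and F2RL2 both shRNA 162 clones lay below both shRNA 159 clones, as in CDA. In HAS2 and CD96 the clones of the hairpins overlapped. Because the 8 were picked for likeness to CDA over all 6 arrays, their lower signal follows largely from the choice. So does the order of the hairpins, and CDA itself was chosen for its lower signal. Neither the lower signal nor the order is a sign that they are regulated together. The 7 of these genes with a RefSeq promoter window held 2 to 20 CpG dinucleotides (median 8), beside a median of 14.0 over all RefSeq windows, 41.6% of which had 8 or fewer. No gene of the pyrimidine lists was among the 8. With 54 listed genes among 18417 that had a row of their own, this absence says little about the pathway.

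**Figure D5:**
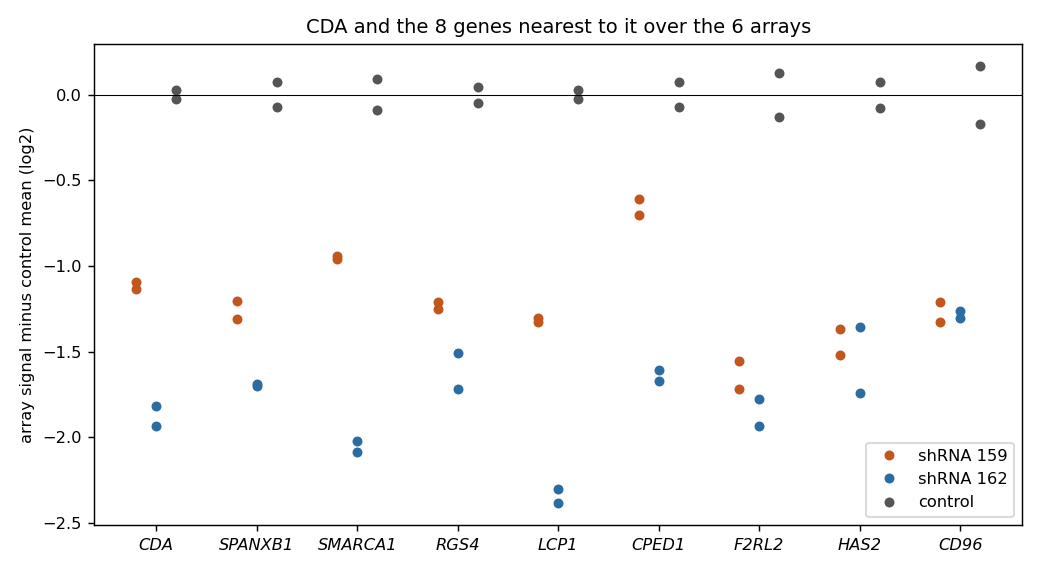
Array signal minus the gene's control mean (log2) in each clone, for CDA and the 8 genes nearest to it, with shRNA 159, shRNA 162 and control side by side. All 4 TIP-1 shRNA clones lie below both control clones in each gene, which follows largely from picking the 8 for likeness to CDA. The nearest, SPANXB1 and SMARCA1, are 0.15 log2 units from CDA.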

How the data were processed

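Total RNA of 6 clones was measured on 1 Affymetrix Human Gene 1.0 ST array per clone. Each deposited value is the log2 signal of a probe set, which the authors made with the Affymetrix Exon Array Computational Tool, per the series' design text. Its settings are not stated there, and base 2 is an inference from the values, which span 2.29 to 14.65. Background correction and summarization can compress differences of dim rows, and detection calls were not used. Arrays give no count depth, and their number limits the precision. Of 33297 rows, 21214 with a gene symbol in the platform's probe table were tested. Each fit was 1 linear model with 3 groups in limma 3.58.1 (R 4.3.3; lmFit, eBayes, 3 residual and 5.31 prior degrees of freedom), two-sided, with Benjamini-Hochberg adjustment over all tested rows. The error is the spread between clones of a group, not between hairpins. SDs are over 2 clones, and intervals are 95% intervals of the fit. The fit was run on simulated rows with known changes. The share of them recovered is not given here, so how small a difference could have been missed is not shown. For genes read by several rows with 1 symbol, the brightest row was used. The rule named all members, up to 4 called genes per list, RRM2, TK1 and SLC29A1, the 8 nearest rows to CDA and 3 neighbours on each side of it. The members and lists were chosen with earlier results of these data known. Other genes, and the neighbours of members other than CDA, were named after their values were seen. Promoter sequences and gene order come from RefSeq, GRCh38.p14, and Python 3.11.15 with matplotlib 3.10.9 drew the figures. Alternatives were quantile normalization, each array left out in turn, a fit of only the compared arrays, brighter rows, all rows, the replicate block, the variance trend, the hairpin as a random block, and all 4 TIP-1 clones treated as a single group.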

Additional observations from a re-analysis of the deposited data

Results flagged for a closer look

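Among TAX1BP3, the 9 tested members, the 18 named genes of the lists and TXNRD1, 11 differed between the hairpins. The test was the direct limma test of shRNA 159 minus shRNA 162, in which 8.65% of all rows passed. All named genes but RRM2, TK1 and SLC29A1 were named because they passed against control on these same arrays. TXNRD1 was named after its values were seen. Such a choice favours a difference between hairpins, so the count of 11 cannot be set beside the share of all rows. TAX1BP3 itself was higher with shRNA 159 (0.47, SE 0.08, adjusted p = 0.013). CMPK1 (-0.38, SE 0.08, adjusted p = 0.027) was lower with shRNA 159, as were APOBEC1 (-0.39, adjusted p = 0.034), DUT (-0.29, adjusted p = 0.042), MCM2 (-0.41, adjusted p = 0.015) and PRIM1 (-0.43, adjusted p = 0.018). GLRX (0.43, adjusted p = 0.024), NME4 (0.42, adjusted p = 0.014), RFC4 (0.61, adjusted p = 0.0049), RRM2 (0.37, adjusted p = 0.049) and TXNRD1 (0.40, adjusted p = 0.014) were higher with shRNA 159. RFC4 passed whichever array was left out, whereas the other 10 lost the call without at least 1 array, and DUT without any 1 of the 6. CDA was not among the genes tested.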

How the results depend on the processing

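CDA kept its direction in every comparison and alternative run: its difference from control ranged from -1.14 to -1.09 with shRNA 159 and from -1.94 to -1.82 with shRNA 162. TAX1BP3 passed against control in all of them. Between hairpins TAX1BP3 lost its call with all rows (adjusted p = 0.068) and without shRNA 162 clone 1. Of 441 recomputed differences of the other 9 members, 424 stayed on the same side of the threshold, 10 gained and 7 lost the call, and 16 uncalled ones changed sign. Of 866 recomputed differences of the 18 named genes of the other lists, 156 lost and 21 gained the call, and none that was called changed sign. The members called numbered 1 (UCK2) among brighter rows and 3 (UCK2, TYMS and RRM1) with a variance trend for shRNA 162 minus control. For shRNA 159 minus control 1 (CMPK1) was called after quantile normalization, among brighter rows and with a variance trend. Between hairpins it was 2 among brighter rows, 3 with a variance trend, 0 with all rows and 0 with only the arrays compared, and 0 to 1 when 1 array was left out. The 54 wider pyrimidine genes gave, for the mean of both hairpins minus control, 4 calls among brighter rows, 4 with a variance trend, 0 with all rows, 0 with the 4 shRNA clones as 1 group, 0 with the hairpin as a random block and 0 to 1 with 1 array left out. For shRNA 162 minus control they gave 2 higher and 3 lower after quantile normalization (5 and 2 as deposited), 1 with all rows and 1 to 7 with 1 array left out. For shRNA 159 minus control they gave 2 among brighter rows (UCKL1 and TXNRD1) and 3 with a variance trend (UCKL1, RRM2 and TXNRD1). Between hairpins they gave 12 among brighter rows, 12 with a variance trend, 0 with all rows, 3 with only the arrays compared and 0 to 4 with 1 array left out. A fit with 1 array left out has a single clone in that group and less precision, so calls lost in this way do not single out an array. The cause was not tested beyond the arrays or rows each setting removes or adds.

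Deviations of same-numbered clones correlated at 0.26 for shRNA 159 with control, a weak pairing that the main fit leaves out. They correlated at -0.05 for shRNA 162 with control and -0.03 for shRNA 159 with shRNA 162, so clone numbers did not pair all groups. With the replicate block the wider genes numbered 1 for the mean minus control, 5 for shRNA 162 minus control and 6 between hairpins, and the members called were 0, 0, 0 and 1 as without it. Each gene was read by a single row, so no other row could be tried for any member. Signal over background was not measured.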
